A study of Mus musculus with 8 samples.

Results

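The 87 cytosolic ribosomal protein genes on this array encode the proteins of the large (53 genes) and small (34 genes) subunits of the ribosome, together with their paralogs and retrogenes. They were chosen by name: probes whose RefSeq accession maps to an Rpl, Rps, Rplp or Rpsa symbol, without the Rps6 kinases, binding proteins and pseudogenes, from 20972 symbols in all. They were represented by 175 of the 55681 non-control probes, and 174 of the 175, covering all 87 genes, passed the filter. The remaining probe was not well above background on any array. RNA came from mouse embryonic stem cells, which are pluripotent. In every group they were cultured with LIF, a cytokine that keeps them undifferentiated, and with the FGF receptor inhibitor PD173074 at 250 nM. The 4OHT group (3 arrays) received the transcription blocker actinomycin D at 5 µM and, 30 min afterwards, 4-hydroxytamoxifen (4OHT) at 250 nM for 4 h. The vehicle group (2 arrays) had actinomycin D and then ethanol for the same 4 h. The untreated group (3 arrays) was taken at 0 h, although an abbreviation of actinomycin D stands in its titles too. The target of 4OHT is not given in the labels, and the series is titled for Erk-regulated mRNA degradation, Erk being a kinase that FGF receptors activate. Conditions are described as having 3 biological replicates, of which 2 are used here for vehicle.

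Ribosomal protein mRNAs are among the most abundant and, in growing mammalian cells, longest-lived messages. Most carry a terminal oligopyrimidine (TOP) motif, an uninterrupted pyrimidine tract that begins at the first transcribed base and places their translation under the control of mTOR. After transcription is blocked, what is left of a message reports its decay.

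The sequence around the annotated start is shown for members that illustrate this motif, and for some of the paralogs whose values are described below with the parents of 3 of them. Each line holds 15 bases before the RefSeq start and 15 from it on (GRCm38.p6), with the longest pyrimidine run near the start in capitals.
Rps6 (chr4:86857353-86857382, minus strand): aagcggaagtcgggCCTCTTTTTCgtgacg
Rps27 (chr3:90213634-90213663, minus strand): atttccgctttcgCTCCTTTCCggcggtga
Rpl22l1 (chr3:28805493-28805522, plus strand): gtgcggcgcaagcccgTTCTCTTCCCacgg
Rps23 (chr13:90923107-90923136, plus strand): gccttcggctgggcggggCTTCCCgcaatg
Rps23rg1 (chr8:3567983-3568012, plus strand): gctttgcagagagTCTTTCTCTCaccccag
Rpl39 (chrX:37085208-37085237, minus strand): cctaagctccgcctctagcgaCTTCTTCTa
Rpl39l (chr16:10170213-10170242, plus strand): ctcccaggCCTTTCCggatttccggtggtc
Rpl36a (chrX:134585639-134585668, plus strand): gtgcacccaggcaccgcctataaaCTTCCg
Rpl36al (chr12:69184053-69184082, minus strand): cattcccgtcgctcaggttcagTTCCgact
Rpl7l1 (chr17:46782642-46782671, minus strand): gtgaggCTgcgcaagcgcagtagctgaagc

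The run spans the start in Rps6 (10 bases) and Rps27 (9 bases), and begins just after it in Rpl22l1 (10 bases). A run of at least 8 pyrimidines lay within 10 bases before to 15 bases after the annotated start in 25 of the 66 members with a promoter in the RefSeq table (37.9%), against 11% of all 27025 genes in that table. The hexamer CCGGAA, on either strand of the 300 bases around the start, was present in 34 of these 66 members (51.5%), against 16.7% of all genes. An annotated start can differ from the start used in these cells, so these matches are a description of the annotated windows.

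All 8 embryonic stem cell markers looked for (Pou5f1, Sox2, Nanog, Zfp42, Esrrb, Klf4, Dppa5a and Tdgf1) passed the filter. So did 5 of 7 feeder fibroblast markers and all 6 primitive endoderm markers, so passing does not by itself mark a cell type. Levels below are log2 signal less the 75th percentile of its array unless another scale is named, and a log2 difference of 1 is a 2-fold difference. The brightness of a probe also depends on its sequence, so a difference in level between probes is not read as a difference in message amount. The 75th percentile itself was 166 to 209 signal units on the 5 arrays after actinomycin D, against 333 to 457 on the untreated arrays, which puts every level after actinomycin D on a lower base. All 3 4OHT arrays were on 1 slide, and the vehicle and untreated arrays were on the other, in different rows. Slide and 4OHT therefore cannot be told apart, nor can slide row and actinomycin D. In bulk RNA, fewer cells and less RNA per cell cannot be told apart either.

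All 87 members were well above background on all 8 arrays. The median level over the members was 9.30, 9.48 and 9.41 in the 4OHT group, 9.61 and 9.52 in the vehicle group, and 8.56, 8.35 and 8.29 in the untreated group. The vehicle arrays and the 4OHT arrays were thus above every untreated array, and both vehicle arrays were above all 4OHT arrays. The member median lay at the 99.19th to 99.31st percentile of all features on each of the 8 arrays. Before any scaling, the member median signal was almost level across groups, at 131500, 128300 and 123600 in the 4OHT group, 129600 and 150400 in the vehicle group, and 125900, 149500 and 126700 in the untreated group. No spot on any array was saturated (0 spots), and the brightest member reached 284000 signal units.

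**Figure D1:**
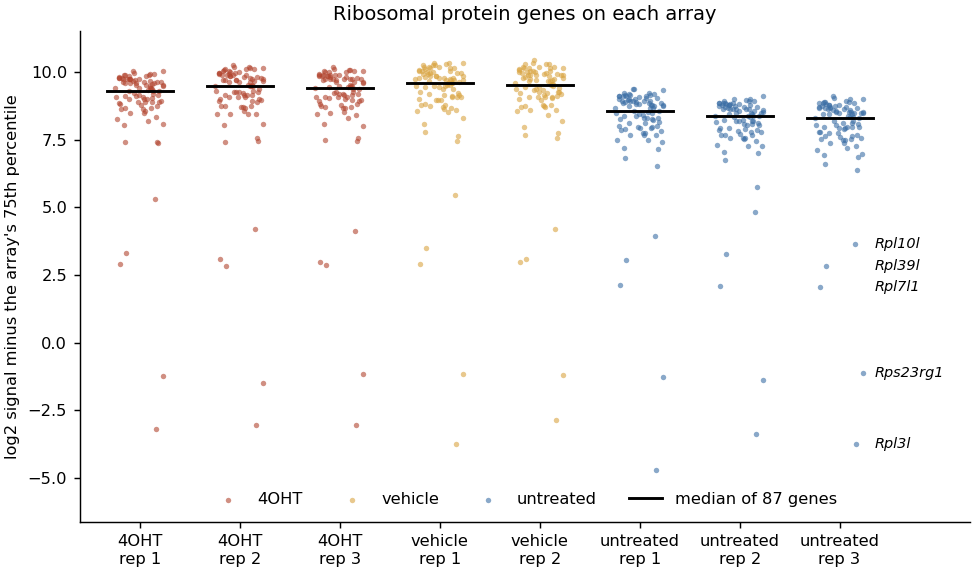
Levels of the 87 ribosomal protein genes on each array, in log2 signal minus the array's 75th percentile; each point is a gene and each black line the median of the 87 genes. The medians are 9.30 to 9.48 on the 4OHT arrays, 9.52 and 9.61 on the vehicle arrays and 8.29 to 8.56 on the untreated arrays, and the 5 dimmest probes are named.

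After actinomycin D and vehicle, ribosomal protein messages rose together against the 75th percentile, though not against spike-in probes. In vehicle against untreated cells, 83 of the 87 members rose and 0 fell (limma, Benjamini-Hochberg adjusted p under 0.05 over all 28493 features), where 41.5% of all features rose and 15.9% fell. By the unadjusted p under 0.05 the counts were the same, 83 and 0, where 45.1% and 17.5% of all features were higher and lower. The median log2 difference was 1.15, a 2.22-fold higher value, against 0.40 over all features. The members were also tightly grouped. Of the 87, 80 lay within 0.25 of the member median, and their scaled median absolute deviation (MAD) was 0.10, against 0.66 over all features. The members' median stood at the 95.4th percentile of all differences. Both subunits shared this value, with a median of 1.15 for the large subunit (50 of 53 rose) and 1.15 for the small subunit (33 of 34 rose).

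**Figure D2:**
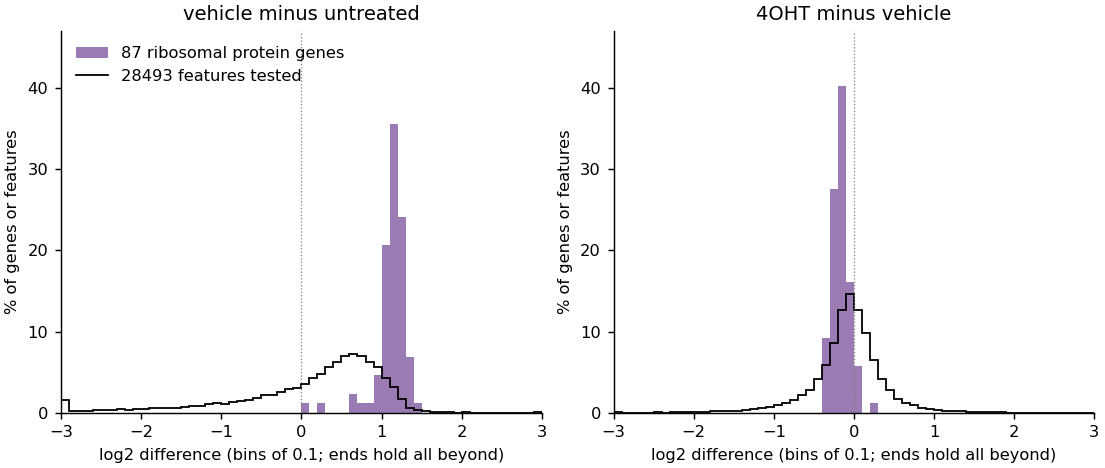
Share of ribosomal protein genes (filled) and of all 28493 features (line) in each 0.1 bin of the log2 difference, vehicle minus untreated on the left and 4OHT minus vehicle on the right. In vehicle cells the genes form a narrow peak around 1.15 (−0.13 on the spike-in scale) at the upper edge of a broad distribution, and in the comparison of 4OHT with vehicle they peak around −0.17 within it.

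The direction of this shift belonged to the scale. The Agilent spike-in probes gave another scale, but the labels describe no spike-in step, so a fixed added amount was not established. Against these probes, the median difference of the members was −0.13 and that of all features −0.88. On that scale 0 members rose and 3 fell (Rps23rg1, Rpl39l and Rps4l), where 0.112% of all features rose and 65% fell. Without any scaling the median differences were 0.05 for the members and −0.70 for all features. The 75th percentile, array median, unscaled and spike-in scales shift every feature of an array by 1 constant, so the same 85 of the 87 members lie above the all-feature median on each of them. Quantile normalization, which does not, gave 7 of 87 above it, with a member median of 0.06 below the 0.21 of all features. The distance between members and other features therefore also depended on the scaling. That method gives features of equal rank equal values, and the member median held nearly the same rank on every array. The spike-in probes did not move in step with each other. Their differences about their own mean ran from −0.26 to 0.13 for vehicle against untreated and from −0.43 to 0.21 for 4OHT against vehicle.

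**Figure D3:**
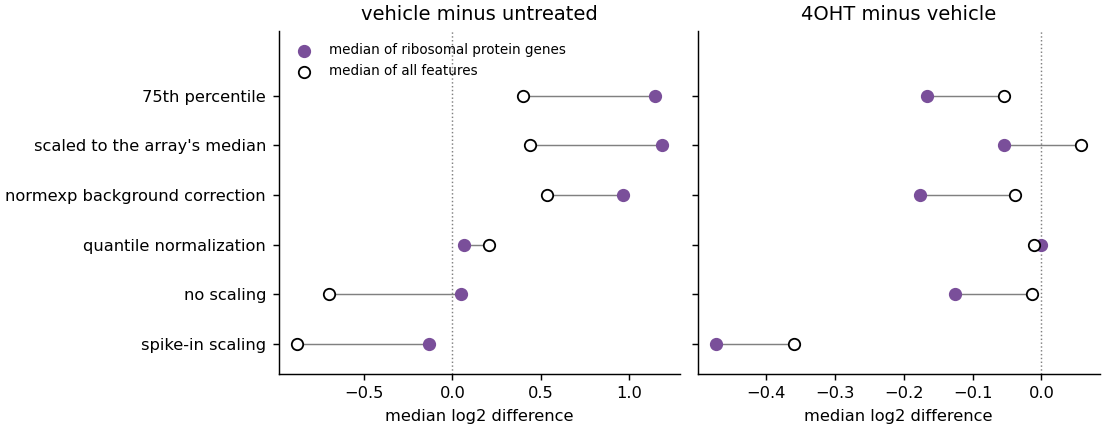
Median log2 difference of the 87 ribosomal protein genes (filled) and of all features (open) under 6 ways of scaling the arrays, vehicle minus untreated on the left and 4OHT minus vehicle on the right. For vehicle against untreated the genes lie to the right of all features in 5 of the 6 rows, and the position of zero changes with the scale.

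The largest rises in vehicle cells included those of Rpl36a, Rps2 and Rpl41. Rpl36a, a large subunit protein encoded on the X chromosome, measured 9.07 and 9.18 on the vehicle arrays, against 7.81, 7.80 and 7.56 on the untreated arrays. The groups were well apart, at 1.40 ± 0.11 (standard error; adjusted p = 0.000167, limma), and the other 2 Rpl36a probes gave 1.28 and 1.22. Rps2, a protein near the mRNA entry channel of the small subunit, differed by 1.32 ± 0.14. Rpl41, the shortest ribosomal protein, differed by 1.31 ± 0.14. On the spike-in scale the highest difference of any member was 0.12.

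Members with further known roles had differences near the member median. The P stalk, made of Rplp0, Rplp1 and Rplp2, recruits the elongation factors to the ribosome. Rplp0 measured 10.18 and 10.18 on the vehicle arrays, against 9.06, 8.81 and 8.79 on the untreated arrays. It rose by 1.29 ± 0.13, Rplp1 by 1.19 ± 0.10 and Rplp2 by 1.09 ± 0.11. Rpl5 and Rpl11, which with 5S rRNA form the particle that binds Mdm2 when ribosome assembly is disturbed, rose by 1.14 ± 0.13 and 1.09 ± 0.12. Rps6, the substrate of the S6 kinases, rose by 1.0 ± 0.15. Rpsa, also known as the laminin receptor precursor, rose by 1.08 ± 0.10. Rps27a, made as a fusion with ubiquitin, rose by 1.17 ± 0.12. Adjusted p-values of these 8 genes in limma were between 0.000211 (Rplp1) and 0.00147 (Rps6). On the spike-in scale their differences ran from −0.27 (Rps6) to 0.013 (Rplp0), and none was called. None of the 8 departed from the members' median by the test described next.

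To find members that depart from the rest, each array was centred on the median of the 87 genes and the fit was repeated. For vehicle against untreated, 0 members were above and 4 below that median, where 0.183% of all features were above and 62.4% below it. The adjustment ran over all features. With so many of them called, an adjusted p under 0.05 does not set the rate of false calls among the 87 members. The 4 members below the median were Rps23rg1, Rpl39l, Rps4l and Rpl7l1, all paralogs or retrogenes of another member. Rps23rg1, a retroposed copy of Rps23, measured −1.14 and −1.18 on the vehicle arrays, against −1.26, −1.37 and −1.13 on the untreated arrays. These values overlap, with a difference of 0.09 ± 0.13 (adjusted p = 0.576), and relative to the member median it was −1.07 (adjusted p = 0.00228). With quantile normalization that relative difference was 0.02 and did not pass (adjusted p = 0.913). Its parent Rps23 measured 9.91 and 9.77 on the vehicle arrays, against 8.84, 8.63 and 8.46 on the untreated arrays, a difference of 1.19 ± 0.13 that is near the member median.

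Rpl39l, which replaces Rpl39 in male germ cell ribosomes, measured 3.48 and 3.08 on the vehicle arrays, against 3.06, 3.28 and 2.85 on the untreated arrays. The groups overlap (0.22 ± 0.22, adjusted p = 0.418), and relative to the member median the difference was −0.94 (adjusted p = 0.0124). Without vehicle replicate 2 that relative difference was −0.79 and no longer passed (adjusted p = 0.0853, limma). Over its other alternatives the adjusted p was 0.000585 to 0.0332, except 0.766 with quantile normalization. Rpl39, which lines the exit tunnel of the large subunit, differed by 0.99 ± 0.14.

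Rps4l, whose probe carries a non-coding RefSeq record, measured 7.62 and 7.75 on the vehicle arrays, against 7.15, 7.01 and 6.87 on the untreated arrays. It rose less than the median member did, by 0.67 ± 0.12, with a relative difference of −0.49 (adjusted p = 0.0100). Without vehicle replicate 1 the relative difference was −0.38 and did not pass (adjusted p = 0.0709, against 0.000965 to 0.0445 over its other alternatives). Its parent Rps4x differed by 1.07 ± 0.12. Rpl7l1, a nucleolar relative of Rpl7 that takes part in ribosome assembly, measured 2.90 and 2.97 on the vehicle arrays, against 2.12, 2.11 and 2.07 on the untreated arrays. It rose by 0.84 ± 0.09, and its relative difference of −0.33 was at the edge of the threshold (adjusted p = 0.0496). It passed without untreated replicate 1 (−0.40, adjusted p = 0.0288) and did not pass without any other single array (adjusted p between 0.0663 and 0.232), and with quantile normalization its sign turned, to 0.60 (adjusted p = 0.00195). Rpl7 differed by 1.22 ± 0.09.

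By distance alone, 5 members lay more than 3 scaled MADs from the median difference, all below it: Rps23rg1, Rpl39l, Rpl3l, Rps4l and Rpl10l. Rpl3l, the striated muscle paralog of Rpl3, measured −3.75 and −2.84 on the vehicle arrays, against −4.70, −3.36 and −3.75 on the untreated arrays. Rpl10l, an autosomal retrogene that stands in for X-linked Rpl10 in male meiosis, measured 5.46 and 4.19 on the vehicle arrays, against 3.93, 4.82 and 3.64 on the untreated arrays. Both had overlapping groups and wide errors (0.64 ± 0.42 and 0.70 ± 0.55), and neither passed the relative test (adjusted p = 0.350 and 0.482). Their parents Rpl3 and Rpl10 differed by 1.09 ± 0.12 and 1.11 ± 0.12. Rpl3l, Rpl10l, Rpl39l and Rps23rg1 were the 4 members that did not pass the test against untreated.

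The other paralogs had differences near the member median. Rpl22l1 differed by 1.04 ± 0.14 and its parent Rpl22 by 1.31 ± 0.13. Rpl36al, an autosomal retrogene of Rpl36a, differed by 1.01 ± 0.10. Rps27l, a paralog induced by p53, differed by 1.26 ± 0.13 and Rps27 by 1.14 ± 0.11. None of these 5 passed the relative test, although with normexp background correction Rpl36al did (−0.35, adjusted p = 0.0136, limma). The probe sequences were not used here, so whether a paralog's probe also binds its parent's message was not tested.

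**Figure D4:**
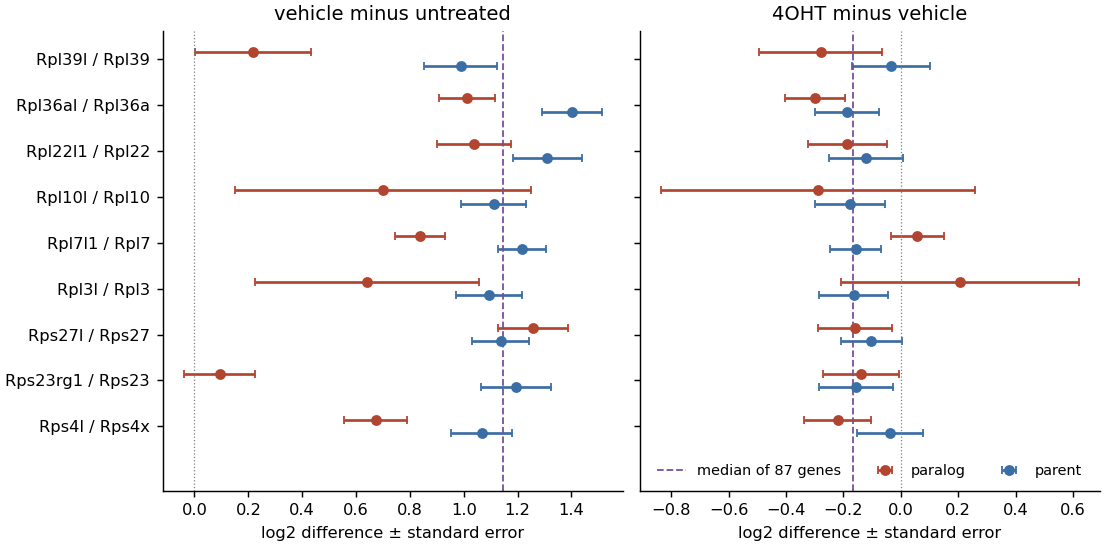
Log2 differences with standard errors for 9 paralogs or retrogenes (red) and their parent genes (blue), vehicle minus untreated on the left and 4OHT minus vehicle on the right; the dashed line is the median of the 87 genes. In vehicle cells Rps23rg1 (0.09) and Rpl39l (0.22) lie far to the left of their parents, and on the right the widest standard errors are those of Rpl10l (0.55) and Rpl3l (0.42).

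Of the 5 members most distant from the median, 4 were among the 5 with the dimmest probes (Rpl3l, Rps23rg1, Rpl39l and Rpl10l). Across the 87 members, mean level and difference between vehicle and untreated cells had Pearson's r = 0.76 and Spearman's rho = 0.33, and without the 5 most distant members r was 0.38. These points share the same arrays and background subtraction, and the part of brightness in the departures was not tested as such. Values from genes with several probes are given beside this. In 11 genes with a brightest probe above a mean level of 7, 12 further probes had a mean level under 4. Of these 12 dim probes, 11 were above zero in vehicle against untreated, with a median of 0.83 against 1.17 for the brightest probes of the same genes. Only 2 of the 12 read higher than the brightest probe of their gene. The dim Rpl6 probe, at a mean level of −1.45, read 0.77, and its brightest probe read 1.18. The dimmest of the 12, an Rps15a probe at −3.28, read −0.51, and the brightest Rps15a probe read 1.24. Rps23rg1, at a mean level between −1.30 and −1.16 in the 3 groups, read 0.09.

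The genes of the dim and brightest probes above are among the 52 members with several kept probes. Over all 52, the median spread between the lowest and highest difference was 0.19. It exceeded 1 in 2 genes. For Rps15a, the small subunit protein, the brightest probe read 1.24 and the dimmest −0.51. For Rpl14, a large subunit protein, they read 1.27 and 0.14.

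**Figure D5:**
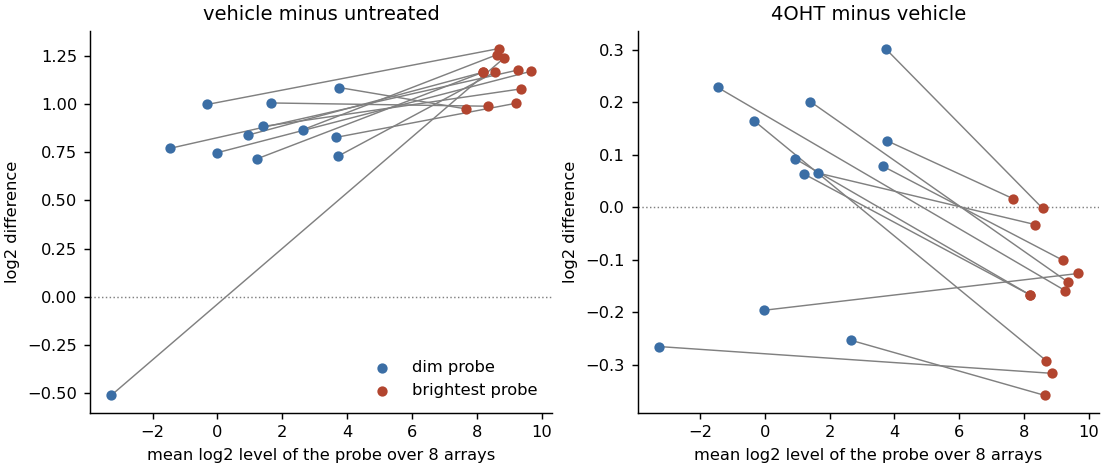
Log2 difference against mean level for dim probes (blue) and the brightest probe (red) of the same 11 genes, joined by lines, vehicle minus untreated on the left and 4OHT minus vehicle on the right. On the left 11 of 12 dim probes are above zero, the exception being Rps15a at −0.51, and on the right 9 of 12 dim probes are above zero while their brightest probes have a median of −0.15.

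Between the 4OHT and vehicle arrays, ribosomal protein messages differed little on the 75th percentile scale, and no member passed the test. These 2 groups were also on different slides. In 4OHT against vehicle, 0 members rose and 0 fell, where 0.923% of all features rose and 2.58% fell, and the lowest adjusted p of a member was 0.183 (Rpl36al, limma). At an unadjusted p under 0.05, 0 members were higher and 8 lower, where 6.33% of all features were higher and 12.8% lower. The median difference was −0.17, against −0.05 over all features, and the range was −0.36 to 0.21. The difference was negative in 81 of the 87 members and in 16516 of all 28493 features. All 4OHT arrays lay below both vehicle arrays in 59 members, and in 0 members did all lie above, where the same held for 24.8% of all features below and 13.5% above. The 95% interval of the difference lay within 2-fold either way for 85 of the 87 members and within 1.5-fold for 73. On the spike-in scale, where the 2 slides also differ, the members' median was −0.47 and that of all features −0.36. There 0 members rose and 0 fell, against 0.137% and 4.14% of all features.

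The 4 lowest values came from Rpl17, Rpl14, Rplp0 and Rps15a. Rpl17, a protein at the exit of the large subunit tunnel, measured 8.83, 8.99 and 8.83 on the 4OHT arrays, against 9.25 and 9.23 on the vehicle arrays. These groups do not overlap, and the difference was −0.36 ± 0.15 (adjusted p = 0.259). Rpl14 gave −0.32 ± 0.13, Rplp0 −0.32 ± 0.13 and Rps15a −0.32 ± 0.13, with adjusted p between 0.239 and 0.252. A second, dimmer Rpl14 probe read 0.64. The highest were Rpl3l (0.21 ± 0.42), Rpl7l1 (0.06 ± 0.09) and Rpl19 (0.06 ± 0.16), and their groups overlap. The paralogs that departed in vehicle against untreated did not pass here, with −0.14 ± 0.13 for Rps23rg1, −0.28 ± 0.22 for Rpl39l and −0.22 ± 0.12 for Rps4l. Relative to the member median, 0 members were above and 0 below, where 0.635% and 0.66% of all features were. By distance, Rpl3l alone lay beyond 3 scaled MADs.

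The sign of this small shift differed between probes of the same genes. Of the 12 dim probes just described, 11 read higher than the brightest probe of their gene, with medians of 0.09 and −0.15. In 17 of the 52 members with several kept probes, at least 1 probe was above zero and another below. Rpsa, for example, ran from −0.33 to 0.20 over its 4 probes, and Rps25 from −0.29 to 0.16. This was not tested as a property of 4OHT, and these arrays lay on different slides.

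4OHT against untreated gave nearly the picture of vehicle against untreated, with which it shares the untreated arrays. Of the 87 members 83 rose and 0 fell, where 41% of all features rose and 18.7% fell. The median difference was 0.99, against 0.31 over all features. The 4 members that did not pass were again Rpl3l, Rpl10l, Rpl39l and Rps23rg1. On the spike-in scale the median was −0.59, 0 members rose and 82 fell, where 0.102% of all features rose and 93.4% fell, so here too the sign belonged to the scale. Those that did not pass on that scale included Rps21, Rpl36a, Rpl22 and Rpl3l.

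Relative to the member median, 1 member was above and 4 below in 4OHT against untreated, where 0.783% and 58.5% of all features were. The 4 below were Rpl39l, Rps23rg1, Rps4l and Rpl36al. Here too the adjusted p does not set the rate of false calls among the members.

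Rpl39l measured 3.32, 2.83 and 2.85 on the 4OHT arrays and 3.06, 3.28 and 2.85 on the untreated arrays, and its relative difference was −1.05 (adjusted p = 0.00476). Rps23rg1 measured −1.22, −1.50 and −1.17 on the 4OHT arrays and −1.26, −1.37 and −1.13 on the untreated arrays, with a relative difference of −1.04 (adjusted p = 0.00150). Rps4l measured 7.39, 7.46 and 7.55 on the 4OHT arrays, against 7.15, 7.01 and 6.87 on the untreated arrays, with a relative difference of −0.54 (adjusted p = 0.00393). These 3 passed without each array in turn. With quantile normalization Rps4l passed (−0.44, adjusted p = 0.00360), whereas Rpl39l (−0.36, adjusted p = 0.203) and Rps23rg1 (−0.09, adjusted p = 0.561) did not. Rpl36al measured 7.42, 7.41 and 7.48 on the 4OHT arrays, against 6.83, 6.74 and 6.60 on the untreated arrays. Its relative difference of −0.28 just passed (adjusted p = 0.0458) and did not pass without any 1 of the 8 arrays (adjusted p between 0.0529 and 0.148). Its parent Rpl36a stood at the other end, with a difference of 1.21 ± 0.10 that was 3.27 scaled MADs above the median. Rps21, a small subunit protein, measured 7.40, 7.56 and 7.43 on the 4OHT arrays, against 6.51, 5.74 and 6.38 on the untreated arrays, with untreated replicate 2 well below the other two. At 1.25 ± 0.20 it too lay beyond 3 scaled MADs, and its relative difference of 0.26 did not pass (adjusted p = 0.262).

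Genes whose products work with ribosomal proteins were set beside them. Fau and Rack1, ribosomal proteins under other symbols, both rose in vehicle against untreated (0.98 and 1.22; −0.29 and −0.06 on the spike-in scale). Of 20 genes for translation elongation factors and other TOP messages, 19 rose and 0 fell, where 41.5% of all features rose and 15.9% fell. Their median was 1.04. Their scaled MAD was 0.13, beside 0.10 for the members, so this narrow spread was not particular to ribosomal protein genes. On the spike-in scale 0 of the 20 rose and 2 fell, where 65% of all features fell. Eef1b2, a subunit of the elongation factor exchange complex, was highest at 1.26 ± 0.13, and Vim, an intermediate filament gene, did not pass at 0.41 ± 0.41. In 4OHT against vehicle 0 of these 20 rose and 0 fell, where 0.923% of all features rose and 2.58% fell. Their median was −0.11.

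Genes that build ribosomes without being part of them were more widely spread, with a scaled MAD of 0.53 in vehicle against untreated. Of 46 ribosome biogenesis genes, 26 rose and 5 fell in vehicle against untreated, where 41.5% of all features rose and 15.9% fell. Their median was 0.38, beside 0.40 for all features. Nhp2, a protein of box H/ACA particles, rose by 1.11 ± 0.16, and Rrs1, an assembly factor of the large subunit, fell by 1.28 ± 0.16. In 4OHT against vehicle 1 of these 46 rose and 3 fell, where 0.923% of all features rose and 2.58% fell. Pes1, part of a large subunit processing complex, was lowest, at −1.52 ± 0.23 (adjusted p = 0.0217). Of 77 mitochondrial ribosomal protein genes tested, 45 rose and 5 fell in vehicle against untreated, where 41.5% of all features rose and 15.9% fell. Their median was 0.47 and their scaled MAD 0.53, against 0.10 for the cytosolic genes. Of 6 further genes (Larp1, Larp4, Larp4b, Tia1, Tial1 and Cnbp), 4 rose and 0 fell, against 41.5% and 15.9% of all features. Larp1, the TOP-binding repressor that acts below mTOR, rose by 0.56 ± 0.12. With spike-in scaling, 0 genes of these biogenesis, mitochondrial and further lists rose in vehicle against untreated, and 34, 54 and 5 fell. Over all features 0.112% rose and 65% fell on that scale.

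Members with and without a long pyrimidine run at the annotated start had similar medians. The 25 members with a run of 8 or more had a median of 1.13 in vehicle against untreated, and the 41 with a shorter run 1.16. In 4OHT against vehicle the medians were −0.16 and −0.17. Rps23rg1 carries a 10-base run in its annotated window and had the lowest difference of all members, whereas Rps6, with a run of the same length, rose by 1.0.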

How the data were processed

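The authors deposited spot intensities. Per the file headers they were made by Feature Extraction 11.0.1.1 from Agilent and are linear and background-subtracted, with other columns marking spots well above background. The labels name Cy5, although green-channel columns were deposited. No spike-in step is described in the labels.

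From these, log2 signal was reduced by each array's 75th percentile over 59305 non-control spots, spots of a probe were averaged, and a probe was kept where all arrays of some group marked it well above background. Accessions were named through a RefSeq table (GRCm38.p6, names only; the headers give mm9), and each symbol was represented by its brightest probe. limma 3.58.1 (R 4.3.3; lmFit, eBayes) was fitted to the 3 groups together over 28493 features with Benjamini-Hochberg adjustment, called under 0.05, two-sided; errors are standard errors of that fit. A second fit centred each array on the members' median. The spike-in scale subtracts the mean of 8 of 10 E1A probes. The script was tested on simulated data. Replicates are separate biological samples per the design text, and 8 arrays limit the precision.

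Members and lists were chosen with earlier results of these data known. Named were members beyond 3 scaled MADs, the 4 highest and 4 lowest, a fixed list of paralogs with parents, the P stalk, Rpl5, Rpl11, Rps6, Rpsa and Rps27a, and genes whose probes disagreed; Rps23, Rpsa's and Rps25's probe ranges and the probe pairs were added after values were seen. Some genes the rule names are not reported here. Alternatives were normexp, quantile, median, no and spike-in scaling, the deposited value table, 2 other filters, probe means, other eBayes and grouping choices, a replicate block, a members' mean centre and leaving out each array.

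Marker lists for feeder fibroblasts (5 of 7 tested, 1 rose and 1 fell in vehicle against untreated) and primitive endoderm (6 tested, 1 rose and 4 fell) were also run. Over all features 41.5% rose and 15.9% fell in that comparison.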

Additional observations from a re-analysis of the deposited data

How the results depend on the processing

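Scaling decided the sign of the shared shift against untreated. Most other alternatives changed few calls of members, but normexp background correction changed the counts relative to the members' median. Quantile normalization gives all arrays the same distribution of values by construction; the causes of the other changes below were not tested. For vehicle against untreated, the members' median of 1.15 was 0.97 with normexp, 0.064 with quantile (3 higher, 1 lower), 0.05 unscaled (0 higher, 2 lower) and −0.13 with spike-in scaling (0 higher, 3 lower). For 4OHT against untreated, 0.99 was 0.78 with normexp, 1.14 with array-median scaling, 0.044 with quantile (6 higher, 1 lower), −0.066 unscaled (0 higher, 3 lower) and −0.59 with spike-in scaling (0 higher, 82 lower). For 4OHT against vehicle, −0.17 was −0.001 with quantile, −0.055 with array-median scaling and −0.47 with spike-in scaling. Members above or below the members' median, 0 and 4 in vehicle against untreated, were 1 and 13 with normexp and 2 and 1 with quantile; 0 above in 4OHT against vehicle was 5 with normexp; and 1 above and 4 below in 4OHT against untreated were 3 and 1 with quantile, 0 above with the mean of probes or no filter, and 2 above when centred on the members' mean. Leaving out 1 array gave medians of 1.09 to 1.23, −0.19 to −0.14 and 0.93 to 1.07, calls of 83 to 84 higher against untreated and 0 for 4OHT against vehicle, 2 to 5 members below the members' median in vehicle against untreated, and 0 to 1 above it in 4OHT against untreated; the 2 was without vehicle replicate 1, and the 0 without untreated replicate 2 or 4OHT replicate 3. Where a called gene changed sign, in vehicle against untreated with quantile the values were −0.018 (Rpl10), −0.017 (Rpl11), −0.02 (Rpl3), −0.075 (Rpl39), −0.064 (Rplp2), −0.27 (Rps4l), −0.001 (Rps4x), −0.11 (Rps6) and −0.044 (Rpsa), and relative to the member median 0.021 (Rps23rg1) and 0.60 (Rpl7l1); unscaled they were −0.008 (Rpl11), −0.058 (Rpl22l1), −0.003 (Rpl3), −0.084 (Rpl36al), −0.11 (Rpl39), −0.26 (Rpl7l1), −0.011 (Rplp2), −0.42 (Rps4l), −0.031 (Rps4x), −0.092 (Rps6) and −0.018 (Rpsa). With spike-in scaling they were −0.17 (Rpl10), −0.19 (Rpl11), −0.006 (Rpl14), −0.24 (Rpl22l1), −0.18 (Rpl3), −0.27 (Rpl36al), −0.29 (Rpl39), −0.14 (Rpl5), −0.06 (Rpl7), −0.44 (Rpl7l1), −0.083 (Rplp1), −0.19 (Rplp2), −0.038 (Rps15a), −0.14 (Rps27), −0.11 (Rps27a), −0.019 (Rps27l), −0.60 (Rps4l), −0.21 (Rps4x), −0.27 (Rps6) and −0.20 (Rpsa). In 4OHT against untreated they were −0.11 (Rpl36al), −0.013 (Rps15a) and −0.39 (Rps4l) with quantile, −0.34, −0.13 and −0.60 for the same genes unscaled, and −0.40 (Rpl22), −0.37 (Rpl36a), −0.87 (Rpl36al), −0.66 (Rps15a), −0.33 (Rps21) and −1.13 (Rps4l) with spike-in scaling. Same-numbered arrays had correlated deviations of −0.19 to 0.36, so the numbers were not taken to pair the cultures; with a replicate block the member medians were 1.11, −0.14 and 0.99, and calls over all features in 4OHT against vehicle were 8 higher and 12 lower, against 263 and 734. The 5 members with the lowest signal were Rpl3l, Rps23rg1, Rpl7l1, Rpl39l and Rpl10l.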
